A study of Mus musculus with 9 samples.

Results

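The opioid, muscarinic, cannabinoid and serotonin receptors examined in the striatum of *Shank3* mutant mice were *Oprm1*, *Oprd1*, *Oprk1*, *Chrm1*, *Chrm4*, *Cnr1*, *Htr1b*, *Htr2c* and *Htr4*. They were chosen by gene symbol and make up 9 of the 15464 genes in the table of the series. RNA-seq was performed on the striatum of male C57BL/6J mice aged 10 to 12 weeks, with 3 WT, 3 HET and 3 KO littermates and 1 striatum per library. WT mice carried intact *Shank3*, HET mice had 1 targeted allele and KO mice had both alleles targeted, in each case at exons 13 to 16 (the *Shank3B* line). The unit is the normalized count, an estimated read count per gene that the authors divided by size factors, and it summed to between 30830020 and 33790296 in a library. These sums follow from the normalization, so that the depth in reads is unknown. On principal component 1 of the log2 values of the genes tested, which held 33.6% of the variance, HET replicate 3 (33.8) and KO replicate 3 (34.2) stood apart from the other 7 libraries (−17.0 to 1.35).

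*Shank3*, which encodes a scaffold protein of excitatory synapses, had normalized counts of 7209, 8812 and 6043 in WT, 7575, 7098 and 8049.8 in HET and 10237, 10798 and 10578 in KO. The 3 KO libraries were the highest, and WT and HET overlapped. In limma, the log2 fold change (log2FC) of *Shank3* in KO against WT was 0.54 (95% interval 0.25 to 0.82), with an unadjusted p of 0.00195 and an adjusted p of 0.999. This gene total takes in exons outside the targeted stretch and so does not check the deletion, and the genotypes are as labelled. Exon-level values were not analysed here. The authors, using a count model, called *Shank3* and other genes changed in KO. They also found the *Shank3* rise by quantitative PCR of exons outside the targeted stretch. The limma fit here did not call it, so a lack of calls here does not show a lack of change.

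The receptors are G protein-coupled. The opioid receptors, *Chrm4*, *Cnr1* and *Htr1b* act mainly through inhibitory G proteins that lower cyclic AMP, *Chrm1* and *Htr2c* act through the Gq pathway and phospholipase C, and *Htr4* acts through stimulatory G proteins that raise cyclic AMP. In the striatum they set how medium spiny neurons, the projection neurons that make up most of its cells, and the axons that reach them respond to opioid peptides, acetylcholine, endocannabinoids and serotonin.

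The 9 receptors fell into 3 ranges of level. Levels of different genes were compared per kilobase (kb) of annotated exon, because the normalized counts keep gene length. Over the 9 libraries, *Cnr1* averaged 1263 ± 259.7 (SD) normalized counts per kb, *Chrm4* 1224 ± 263 and *Chrm1* 899.9 ± 80.8. By level per kb, *Cnr1* stood above 92.5% of the genes tested, *Chrm4* above 92.2% and *Chrm1* above 88.6%. *Cnr1* and *Chrm4* did not differ beyond their spread, *Cnr1* being higher in 4 of 9 libraries, whereas *Chrm4* exceeded *Chrm1* in 9 of 9 libraries even though their ranges overlapped. The middle range held *Htr1b* at 217 ± 55.7, *Oprd1* at 194 ± 34.3, *Htr2c* at 189 ± 47.3 and *Oprk1* at 98.3 ± 23.8 normalized counts per kb. *Htr1b* was above *Oprd1* in 7 of 9 libraries and *Oprd1* above *Htr2c* in 5 of 9, so that these neighbours could not be ordered, whereas *Oprk1* was below *Htr2c* in 9 of 9. The low range held *Htr4* at 10.3 ± 5.21 and *Oprm1* at 7.23 ± 2.82 normalized counts per kb, above 8.4% and 5.8% of the genes tested. These shares rest on the union of annotated exons and were not taken with other lengths. Per kb of the longest transcript, *Oprm1* was at 24.0 and *Htr4* at 10.9. The ranges over libraries did not overlap between *Chrm1* and *Htr1b*, whose means differed 4.14-fold, nor between *Oprk1* and *Htr4*, whose means differed 9.52-fold. The order inside a range followed the length used. With the mean length of coding transcripts, *Chrm1* led at 1525 normalized counts per kb, and *Oprm1*, at 36.0, passed *Htr4*, at 23.8. *Htr2c* then led the middle range at 468, as it did with the longest transcript at 362, and *Oprk1*, at 316, passed *Oprd1*, at 194. The gaps between ranges narrowed without overlap, to 2.61-fold (*Chrm4* over *Htr2c*) and 5.40-fold (*Oprd1* over *Oprm1*) with the coding length and to 2.57-fold (*Chrm1* over *Htr2c*) and 8.02-fold (*Oprk1* over *Oprm1*) with the longest transcript. The annotation gives *Chrm4* 1440 bp of exon, all of it coding length, against 6444 bp for *Cnr1*, of which 1422 bp are coding.

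Counted against the background of all genes tested, the receptors showed no call in any of the 3 genotype comparisons. In HET against WT, 0 of 9 receptors had an adjusted p under 0.05 in limma, as against 0% of the 14239 genes tested, 0 of 9 had an unadjusted p under 0.05 against 1.11% of genes, and 0 of 9 had groups that did not overlap against 4.45% of genes. In KO against WT, 0 of 9 receptors passed the adjusted threshold against 0% of genes, 0 of 9 the unadjusted one against 0.822%, and 0 of 9 had groups without overlap against 4.54%. In KO against HET, 0 of 9 receptors passed the adjusted threshold against 0% of genes, 0 of 9 the unadjusted one against 1.31%, and 0 of 9 had groups without overlap against 4.45%. The unadjusted shares moved with single libraries. Leaving out 1 library at a time, the genes with an unadjusted p under 0.05 numbered 119 to 394 in HET against WT (158 with all libraries), 72 to 292 in KO against WT (117) and 141 to 303 in KO against HET (186). The median log2FC of the receptors was 0.04 in HET against WT, where 6 were above 0 and 3 below. It was −0.09 in KO against WT, with 2 above and 7 below, and −0.12 in KO against HET, with 3 above and 6 below. Over all genes tested the medians were −0.0027, 0.0047 and −0.001. The HET and KO comparisons share the WT libraries, so that their values are not independent. An exact permutation test of 3 against 3 libraries cannot go below p = 0.1. Fold changes are on the scale of log2(normalized count + 1), which understates the change of low genes such as *Oprm1* and *Htr4*.

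**Figure D1:**
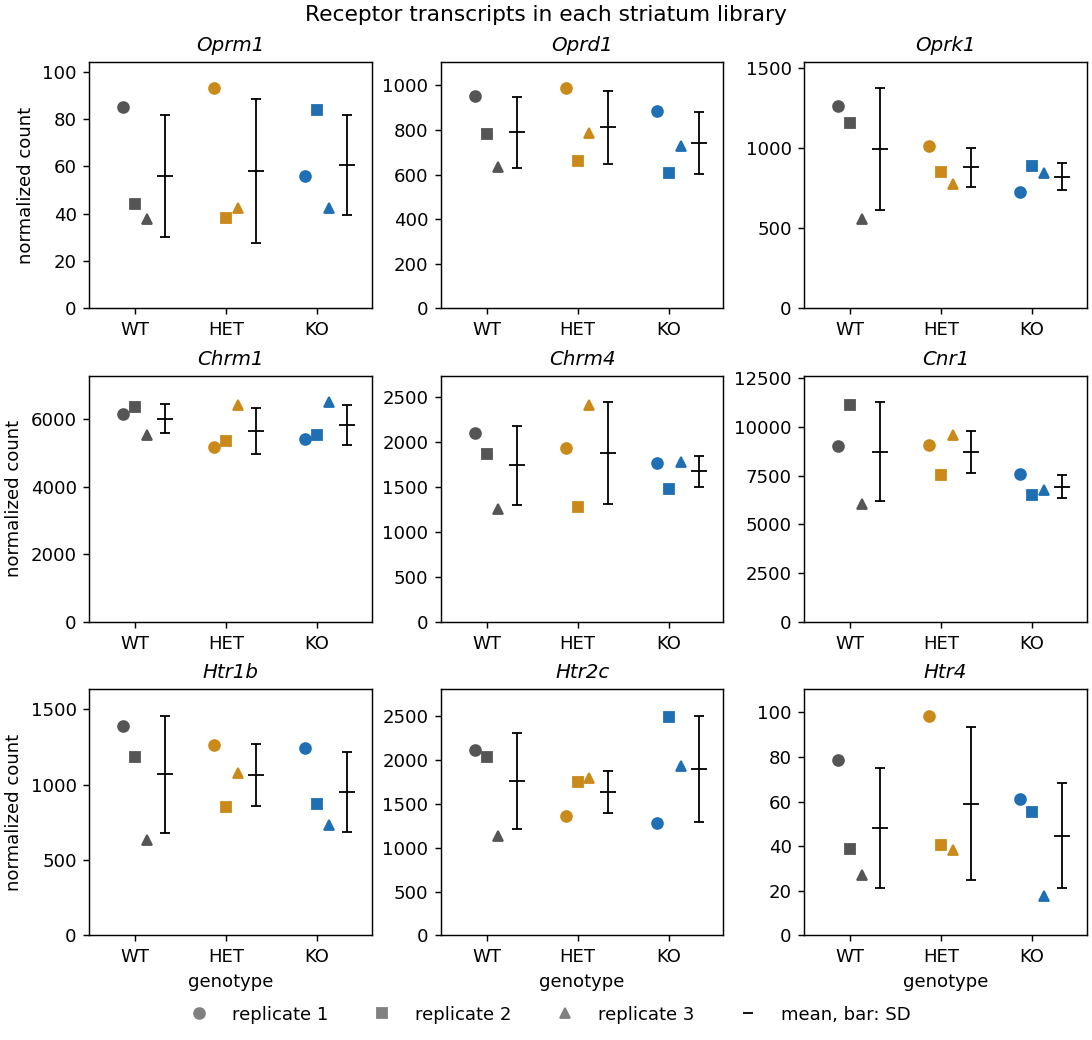
Normalized counts (vertical axes, starting at 0) of the 9 receptor genes in each library by genotype (horizontal axes), with marker shapes for the replicate number and a black line and bar for the mean and SD of 3 libraries. WT replicate 3 is the lowest of the 9 libraries for 6 of the receptors.

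Among the opioid receptors, *Oprm1*, the mu receptor, had normalized counts of 85.2, 44.2 and 37.8 in WT, 92.9, 38.3 and 42.3 in HET and 55.9, 83.8 and 42.4 in KO. A single library of each genotype stood well above the others, which lay between 37.8 and 55.9, so that the genotypes overlapped throughout. The log2FC of *Oprm1* was 0.03 in HET against WT (−0.90 to 0.95), 0.16 in KO against WT (−0.77 to 1.08) and 0.13 in KO against HET (−0.79 to 1.05). *Oprd1*, the delta receptor, had normalized counts of 953, 782 and 633 in WT, 986, 661 and 787 in HET and 886, 607 and 729.8 in KO. Replicate 1 was the highest library of each genotype, and the genotypes overlapped. The log2FC of *Oprd1* was 0.04 in HET against WT (−0.40 to 0.48), −0.09 in KO against WT (−0.53 to 0.35) and −0.13 in KO against HET (−0.57 to 0.31). *Oprk1*, the kappa receptor, had normalized counts of 1266, 1157 and 559 in WT, 1017, 850.5 and 779 in HET and 730.4, 891 and 848 in KO. WT held both the highest libraries, replicates 1 and 2, and the lowest, replicate 3. The means of *Oprk1* were 994 ± 381 (SD, n = 3) in WT, 882 ± 122 in HET and 823 ± 83.1 in KO, and the log2FC in KO against WT was −0.19 (−0.78 to 0.40). Without WT replicate 3, this log2FC was −0.56, with an unadjusted limma p of 0.0037 and adjusted p between 0.999 and 1.0 under all alternatives tried. It reversed to 0.028 without WT replicate 1 and was −0.036 without WT replicate 2. In HET against WT the log2FC of *Oprk1* was −0.09 (−0.68 to 0.49), and −0.47 without WT replicate 3, with an unadjusted limma p of 0.0105. This direction reversed without WT replicate 1 (0.124) and without WT replicate 2 (0.06).

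Among the muscarinic receptors, *Chrm1*, which is carried by both classes of medium spiny neuron, had normalized counts of 6155, 6369.6 and 5539 in WT, 5182, 5367 and 6440.2 in HET and 5432, 5539.7 and 6516 in KO. It was the steadiest of the receptors, with a residual SD of 0.14 on the log2 scale against a median of 0.19 over all genes tested. Its highest library exceeded its lowest 1.26-fold, and the genotypes overlapped. The log2FC of *Chrm1* was −0.09 in HET against WT (−0.35 to 0.16), −0.05 in KO against WT (−0.30 to 0.21) and 0.04 in KO against HET (−0.21 to 0.30). *Chrm4*, found mainly on medium spiny neurons of the direct pathway, had normalized counts of 2100.5, 1867 and 1255 in WT, 1928, 1280.5 and 2416 in HET and 1761, 1478 and 1781 in KO. The KO libraries were the closest to each other and lay inside the range of HET. The log2FC of *Chrm4* was 0.09 in HET against WT (−0.44 to 0.62), −0.03 in KO against WT (−0.56 to 0.50) and −0.12 in KO against HET (−0.65 to 0.41).

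*Cnr1*, the main cannabinoid receptor of the brain, which limits transmitter release from axon terminals, gave the lowest unadjusted p of the 9 receptors. Its normalized counts were 9033, 11121 and 6056 in WT, 9087, 7529.9 and 9606 in HET and 7599.5, 6492 and 6743 in KO. The highest KO library lay just above the lowest HET library, and the WT libraries spanned both genotypes. The means were 8737 ± 2546 (SD, n = 3) in WT, 8741 ± 1080.2 in HET and 6945 ± 581 in KO. In KO against HET the log2FC was −0.33 (95% interval −0.76 to 0.11), with an unadjusted limma p of 0.124 and an adjusted p of 1.0. In KO against WT it was −0.29 (−0.72 to 0.14), with an unadjusted limma p of 0.167 and an adjusted p of 0.999, and in HET against WT it was 0.04 (−0.40 to 0.47). The exact permutation test gave p = 0.2 for KO against HET and p = 0.4 for KO against WT. The value for KO against WT turned on single WT libraries, as the log2FC was −0.53 without WT replicate 3, with an unadjusted limma p of 0.00512, and −0.09 without WT replicate 2. Without WT replicate 3 the unadjusted limma p for KO against HET was 0.0325, at the same log2FC, and the adjusted p of *Cnr1* stayed between 0.923 and 1.0 in this comparison under all alternatives tried.

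Among the serotonin receptors, *Htr1b*, an inhibitory receptor on the axon terminals of medium spiny neurons, had normalized counts of 1386, 1186 and 635 in WT, 1261, 851 and 1074 in HET and 1244, 869.8 and 732 in KO. The genotypes overlapped, with replicate 1 the highest library of each. The log2FC of *Htr1b* was 0.05 in HET against WT (−0.60 to 0.69), −0.13 in KO against WT (−0.78 to 0.51) and −0.18 in KO against HET (−0.82 to 0.46). *Htr2c*, which acts through the Gq pathway, had normalized counts of 2117, 2032 and 1129 in WT, 1358, 1755 and 1798 in HET and 1287, 2496 and 1929 in KO. The KO libraries reached both above and below the HET libraries. The log2FC of *Htr2c* was −0.06 in HET against WT (−0.68 to 0.55), 0.12 in KO against WT (−0.50 to 0.73) and 0.18 in KO against HET (−0.44 to 0.79). *Htr4*, which raises cyclic AMP, had normalized counts of 78.6, 39.0 and 27.2 in WT, 98.5, 40.4 and 38.1 in HET and 61.0, 55.3 and 17.8 in KO. Replicate 1 was the highest and replicate 3 the lowest library of each genotype, and the highest library exceeded the lowest 5.52-fold. Its intervals were the widest of the 9 receptors. The log2FC of *Htr4* was 0.28 in HET against WT (−0.95 to 1.51), −0.15 in KO against WT (−1.38 to 1.08) and −0.43 in KO against HET (−1.66 to 0.80).

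HET and KO libraries of the same replicate number deviated together over all genes tested, and the differences were therefore also taken within these pairs, a choice made after seeing the data. The labels do not state a pairing. Replicate 1 of WT also deviated with replicate 1 of HET (r = 0.319), against 0.281 for replicate 2 of HET and KO. KO was below HET in 3 of 3 pairs for *Cnr1* (log2 differences −0.26, −0.21 and −0.51) and for *Oprd1* (−0.15, −0.12 and −0.11), and above HET in 3 of 3 for *Chrm1* (0.07, 0.05 and 0.02). The pairs of the other 6 receptors disagreed in direction. The share of all genes tested whose 3 pairs agreed was not counted, so this agreement cannot be read as particular to these receptors. With HET and KO fitted alone and replicate number as a block, the log2FC of *Cnr1* was −0.33 (95% interval −0.50 to −0.15), with an unadjusted limma p of 0.00326 and an adjusted p of 0.923, against an unadjusted 0.033 for these genotypes without the block. The block planned over all 9 libraries gave *Cnr1* an unadjusted limma p of 0.125 (adjusted 1.0), beside 0.124 in the main fit. In the fit of HET and KO with the block, for *Oprd1* the unadjusted limma p was 0.134 (adjusted 0.958) and for *Chrm1* 0.472 (adjusted 0.968). In this fit 705 of the 14239 genes had an unadjusted p under 0.05 and 0 an adjusted p under 0.05.

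**Figure D2:**
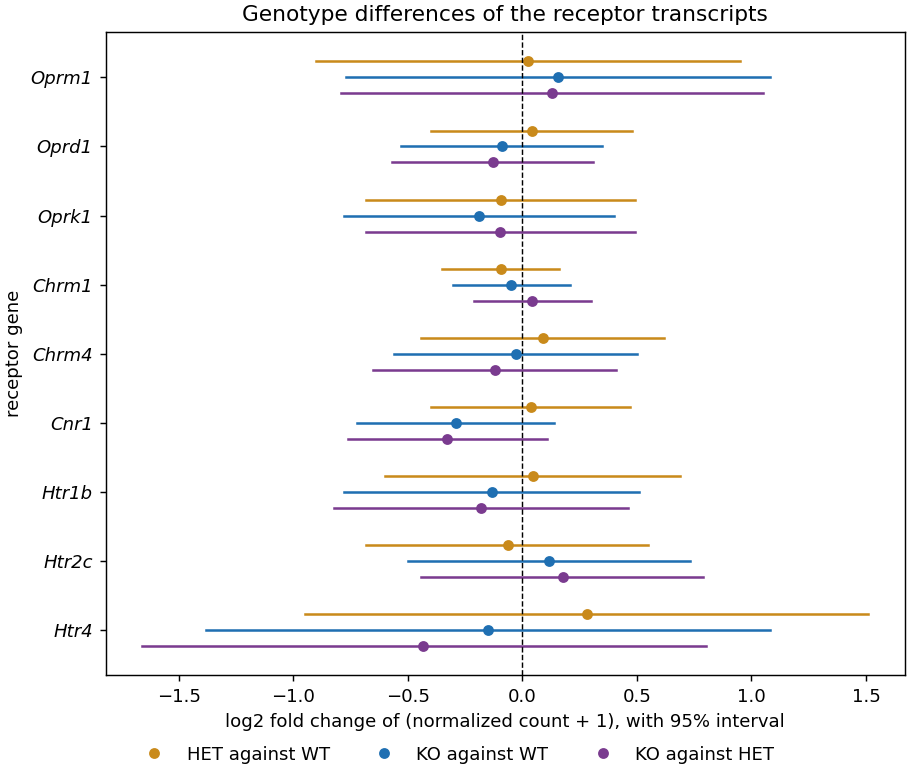
Log2 fold change (horizontal axis) of each receptor gene (vertical axis) in the 3 genotype comparisons, from limma on log2(normalized count + 1), with points for estimates and lines for 95% intervals. Each interval spans 0, and those of *Htr4* are the widest.

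Single libraries held the extremes of several receptors at once. WT replicate 3 held the lowest value of the 9 libraries for 6 receptors (*Cnr1*, *Chrm4*, *Oprm1*, *Oprk1*, *Htr1b* and *Htr2c*), and HET replicate 1 the highest for 3 (*Oprm1*, *Oprd1* and *Htr4*). The residual SD on the log2 scale was above the median gene's 0.19 for 8 receptors, from 0.29 for *Oprd1* to 0.83 for *Htr4*. Of the 36 pairs of receptors, 32 had a positive Pearson r over the 9 libraries. The highest was that of *Oprd1* with *Htr1b* (r = 0.85, exact permutation p = 0.00569, adjusted p = 0.102 over the 36 pairs, Spearman rho = 0.85, exact p = 0.00607, adjusted p = 0.0972), and without the libraries farthest from the median of *Oprd1*, HET replicate 1 and KO replicate 2, r was 0.90. Leaving out the libraries farthest from the median of the first receptor turned r of some other pairs negative and raised that of others. It took r from 0.14 to −0.38 for *Htr1b* with *Htr2c* and from 0.3 to −0.28 for *Chrm4* with *Oprm1*. The adjusted exact p over the 9 libraries was under 0.05 for 0 of the 36 pairs. The share of all genes at an extreme in these libraries, and of gene pairs with a positive r, was not counted. Neither count is therefore shown to be a trait of the receptors.

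Markers of medium spiny neurons varied over the same libraries. The 7 markers of all medium spiny neurons (*Ppp1r1b*, *Bcl11b*, *Rgs9*, *Pde10a*, *Foxp1*, *Adcy5* and *Gng7*) had summed normalized counts of 147530, 167144 and 86320 in WT, 144029, 111261 and 147697 in HET and 123105, 110147 and 86163 in KO. WT replicate 3 and KO replicate 3 were the low libraries, and each of the 7 markers was at its lowest in either of these, 3 in WT replicate 3 and 4 in KO replicate 3. *Ppp1r1b* was the most abundant of them per kb and *Adcy5* by normalized count, and 0 of 7 were at 0 in any library. In KO against WT, 0 of 7 had an adjusted p under 0.05 in limma and 0 an unadjusted p under 0.05, while 7 of 7 were below 0 and the median log2FC was −0.29, against 0.0047 over all genes tested. This median moved with single libraries, being −0.59 without WT replicate 3 and −0.09 without WT replicate 2. In KO against HET 7 of 7 were below 0, with a median of −0.34, and −0.14 without KO replicate 3. In HET against WT 3 were above and 4 below, with a median of 0.00, from −0.28 without WT replicate 3 to 0.20 without WT replicate 2. For the lists that follow, the range of the median with 1 library left out, an alternative chosen after seeing the data, stands after each median, and the leading gene is the most abundant per kb. The 6 direct-pathway markers, led by *Drd1*, summed to 10931, 10299 and 5939 in WT, 11951, 7830 and 8321 in HET and 10006, 9422 and 5980 in KO. They were divided in direction, with 4 above and 2 below 0 in HET against WT (median log2FC 0.13, range −0.16 to 0.29), 2 above and 4 below in KO against WT (−0.06, −0.26 to 0.20) and 2 above and 4 below in KO against HET (−0.10, −0.22 to 0.01). The 5 indirect-pathway markers in the table, led by *Penk*, summed to 31689, 39474 and 19811 in WT, 32091, 27853 and 30441 in HET and 28295, 26320 and 18167 in KO, and *Gpr52*, also on that list, is not in the table. Of these 5, 5 were below 0 in KO against WT (median log2FC −0.26, range −0.52 to −0.05) and 5 in KO against HET (median −0.40, −0.64 to −0.16), and 2 in HET against WT (median 0.05, −0.18 to 0.32). In both lists WT replicate 3 and KO replicate 3 were again the lowest libraries. The 7 markers of cortical glutamatergic neurons, led by *Slc17a7*, summed to 39084, 41306 and 50450 in WT, 34081, 47658 and 42326 in HET and 38144, 42446 and 54146 in KO, with 0 of 7 at 0 in any library. Their highest sums were in KO replicate 3 and WT replicate 3. In bulk tissue, fewer cells of a type and less RNA per cell cannot be told apart, and whether these markers account for the genotype differences of the receptors was not tested.

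**Figure D3:**
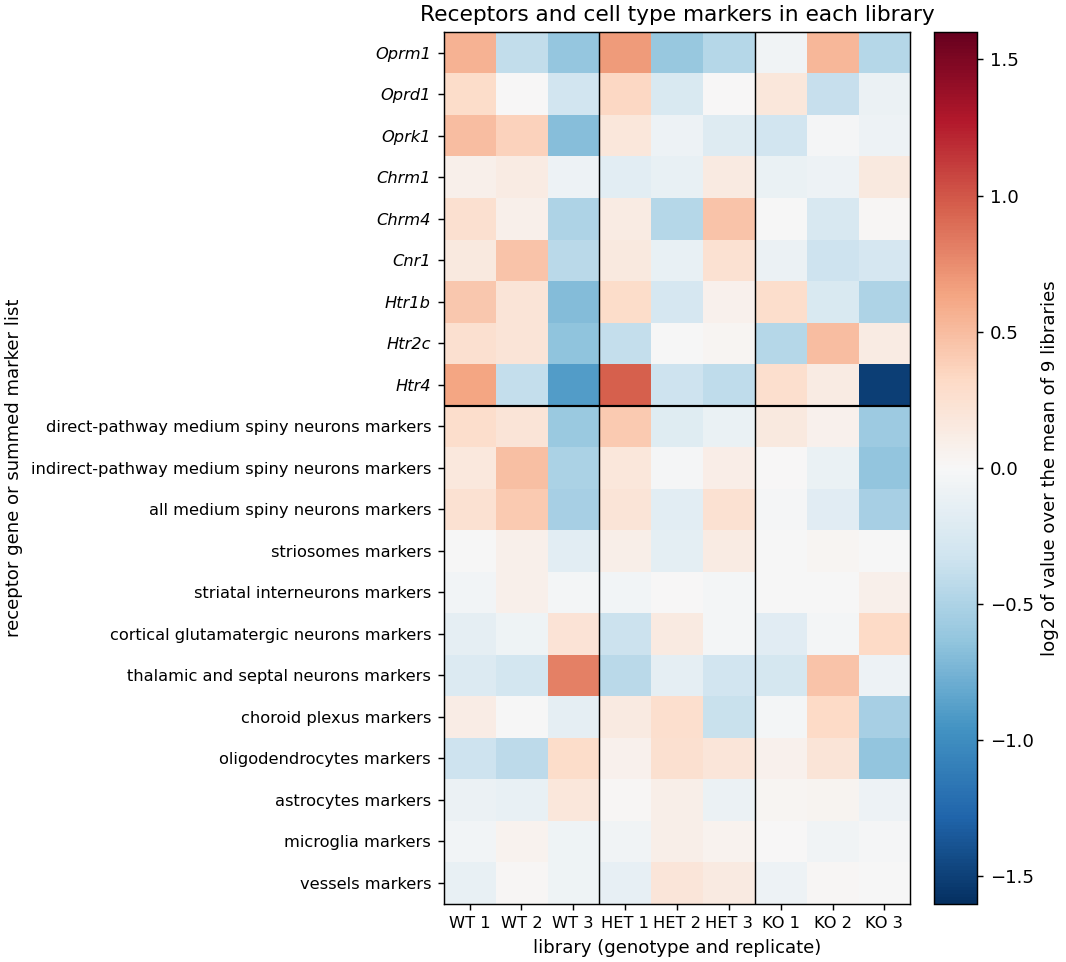
Log2 of each receptor's normalized count (upper rows), or of the summed normalized counts of each marker list (lower rows), over its own mean of the 9 libraries, by library (columns), with red above and blue below the mean. WT replicate 3 is low for most receptors and for the medium spiny neuron lists. KO replicate 3 is low for these lists, for the oligodendrocyte and choroid plexus lists and for *Htr4*, *Htr1b*, *Oprm1* and *Cnr1*.

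After these values had been seen, the log2 value of each receptor was correlated over the 9 libraries with the mean log2 value of the medium spiny neuron markers and of the cortical markers, 18 relations in all. *Cnr1* followed the medium spiny neuron markers most closely (r = 0.92, exact permutation p = 0.000543, adjusted p = 0.00977, rho = 0.85, exact p = 0.00607, adjusted p = 0.0364). Without WT replicate 3 and KO replicate 3, the libraries farthest from the median of the markers, r was 0.95 (exact permutation p = 0.00317, adjusted p = 0.05), so that r held with 7 libraries and the adjusted p was no longer under the threshold. With WT replicate 3 alone left out, r of *Cnr1* was 0.89 (adjusted exact p = 0.0556). With each genotype's mean removed, r was 0.90. *Htr1b* followed the same markers (r = 0.90, exact permutation p = 0.00157, adjusted p = 0.0141, rho = 0.85, exact p = 0.00607, adjusted p = 0.0364). Without WT replicate 3 and KO replicate 3 its r was 0.74 and the adjusted exact p 0.271, and without WT replicate 3 alone r was 0.86 (adjusted exact p = 0.0556). The call was lost in both cases, and whether those libraries or the smaller number ended it was not tested. For the other 7 receptors the adjusted exact p of r with these markers was 0.0993 or above, and *Chrm1* (r = 0.13) and *Htr2c* (r = 0.25) had the lowest r. This order did not hold without WT replicate 3 and KO replicate 3, where r was 0.66 for *Chrm1*, 0.03 for *Oprm1* (from 0.40) and 0.08 for *Htr4* (from 0.67). With the cortical markers, *Htr1b* had a negative relation (r = −0.86, exact permutation p = 0.00296, adjusted p = 0.0178, rho = −0.82, exact p = 0.0108, adjusted p = 0.0486). *Htr4* also ran against the cortical markers, past the threshold by r and not by rho (r = −0.83, exact permutation p = 0.00535, adjusted p = 0.0241, rho = −0.78, exact p = 0.0172, adjusted p = 0.0619). The relation of *Oprm1* was negative as well (r = −0.77, exact permutation p = 0.013, adjusted p = 0.0468, rho = −0.85, exact p = 0.00607, adjusted p = 0.0364). Without the same libraries, r was −0.60 for *Htr1b* and −0.69 for *Htr4*, with adjusted exact p of 0.272 and 0.271. Neither call was kept with 7 libraries, and whether those libraries or the smaller number ended it was not tested. For *Oprm1*, r without WT replicate 3 and KO replicate 3 was −0.75 (exact permutation p = 0.00556, adjusted p = 0.05), close to its value over the 9 libraries. Leaving out single libraries took the adjusted exact p of these relations above 0.05 in some cases, also where r was about as large as over the 9 libraries. For *Htr1b*, r without WT replicate 3 was −0.77 (adjusted exact p = 0.102). For *Htr4*, r was −0.84 (adjusted exact p = 0.057) without WT replicate 3 and −0.77 (adjusted exact p = 0.13) without HET replicate 1. For *Oprm1* this held for 6 libraries, r being −0.77 (adjusted exact p = 0.0843) without WT replicate 1, −0.75 (adjusted exact p = 0.102) without WT replicate 3, −0.69 (adjusted exact p = 0.175) without HET replicate 1, −0.74 (adjusted exact p = 0.102) without HET replicate 2, −0.78 (adjusted exact p = 0.0663) without KO replicate 1 and −0.77 (adjusted exact p = 0.0565) without KO replicate 2. Calls that appeared when a library was left out were those of *Htr4* with the medium spiny neuron markers without WT replicate 2, at 0.83 (adjusted exact p = 0.0381), and of *Chrm4* and *Oprk1* with them without KO replicate 3, at 0.83 (adjusted exact p = 0.0361) and 0.82 (adjusted exact p = 0.0361). *Oprd1* gained a call with the cortical markers without KO replicate 2, at −0.91 (adjusted exact p = 0.0198). The permutations treat the 9 libraries as independent, although HET and KO libraries of the same number deviated together. With these averaged, also chosen after seeing the data, 6 values remain, and r with the medium spiny neuron markers was 0.95 (exact permutation p = 0.00694, adjusted p = 0.0583) for *Cnr1*, 0.94 (exact permutation p = 0.00972, adjusted p = 0.0583) for *Oprk1* and 0.92 (exact permutation p = 0.0167, adjusted p = 0.075) for *Htr1b*. With the cortical markers it was −0.96 (exact permutation p = 0.00833, adjusted p = 0.0583) for *Htr1b*, −0.84 (exact permutation p = 0.0389, adjusted p = 0.104) for *Oprk1*, −0.82 (exact permutation p = 0.0292, adjusted p = 0.104) for *Oprd1*, −0.80 (exact permutation p = 0.0403, adjusted p = 0.104) for *Htr4* and −0.77 (exact permutation p = 0.0514, adjusted p = 0.116) for *Oprm1*, so that 0 of the 18 relations passed the threshold over these 6 values.

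Of the 73 tested marker genes of all lists, 0 had an adjusted p under 0.05 in limma in any comparison, and those with an unadjusted p under 0.05 were 0 in HET against WT and 1, *Prkcd*, in KO against WT and in KO against HET. The 9 choroid plexus markers, a tissue rich in *Htr2c*, summed to between 205 and 372 normalized counts, with *Clic6* the most abundant per kb and *Ttr* at 0 in WT replicate 1 and KO replicate 3. *Htr2c*, at 1129 to 2496 normalized counts, was above the summed choroid plexus list in each library. These counts keep gene length, and whether choroid plexus contributed to *Htr2c* was not tested. The 6 thalamic and septal markers, led by *Calb2*, had their highest sum, 2501, in WT replicate 3, where *Calb2* alone gave 1295 and *Prkcd* was at its lowest, and their lowest, 1061, in HET replicate 1. The 6 oligodendrocyte markers, led by *Mbp*, summed to 164137, 154380 and 253632 in WT, 216710, 245573 and 236047 in HET and 215562, 237527 and 132901 in KO. Of these 6, 6 were above 0 in HET against WT (median log2FC 0.33, range 0.19 to 0.54), 4 in KO against WT (0.03, −0.11 to 0.26) and 0 in KO against HET (−0.31, −0.43 to −0.07), the last median being −0.07 without KO replicate 3. Striosome markers, 4 genes led by *Lypd1*, summed to between 3920 and 4809, and striatal interneuron markers, 9 genes led by *Sst*, to between 11559 and 12620. Sums lay between 26082 and 31854 for 5 astrocyte markers led by *Slc1a3*, between 7742 and 8679 for 5 microglia markers led by *C1qa* and between 8914 and 11119 for 6 vessel markers led by *Vtn*. Of the 6 vessel markers, 6 were above 0 in HET against WT (median log2FC 0.12, range 0.09 to 0.24), 4 in KO against WT (0.03, −0.02 to 0.10) and 0 in KO against HET (−0.10, −0.20 to −0.04). Of the 7 cortical markers, 1 was above 0 in HET against WT (median log2FC −0.08, range −0.20 to 0.03), 3 in KO against WT (−0.02, −0.10 to 0.14) and 6 in KO against HET (0.11, −0.06 to 0.18), and of the 9 interneuron markers, 5 were above 0 in HET against WT (median log2FC 0.03, range −0.04 to 0.08), 2 in KO against WT (−0.22, −0.22 to −0.14) and 3 in KO against HET (−0.26, −0.22 to 0.00). Of the 5 microglia markers, 3 were above 0 in HET against WT (median log2FC 0.07, range −0.03 to 0.08), 2 in KO against WT (−0.03, −0.07 to 0.04) and 0 in KO against HET (−0.05, −0.08 to −0.01), and of the 5 astrocyte markers, 4 were above 0 in HET against WT (median log2FC 0.06, range 0.01 to 0.16), 4 in KO against WT (0.03, 0.00 to 0.18) and 2 in KO against HET (−0.02, −0.04 to 0.05). Of the 4 striosome markers, 4 were above 0 in HET against WT (median log2FC 0.04, range −0.03 to 0.13), 2 in KO against WT (−0.02, −0.03 to 0.09) and 2 in KO against HET (−0.06, −0.13 to 0.10). Of the 6 thalamic and septal markers, 3 were above 0 in HET against WT (median log2FC −0.09, range −0.23 to −0.02), 3 in KO against WT (−0.03, −0.12 to 0.24) and 4 in KO against HET (0.29, 0.05 to 0.41), and of the 7 choroid plexus markers tested, 4 were above 0 in HET against WT (median log2FC 0.28, range 0.02 to 0.48), 5 in KO against WT (0.15, 0.05 to 0.34) and 2 in KO against HET (−0.07, −0.41 to 0.04).

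Other genes of the receptors' transmitter systems were taken as 5 lists of 77 genes, of which 75 were in the table and 70 were tested. In each of the 3 comparisons 0 of the 70 had an adjusted p under 0.05 in limma and 0 an unadjusted p under 0.05. The opioid list holds the peptide precursors, their processing enzymes and the nociceptin receptor. *Penk*, the enkephalin precursor, had normalized counts of 20022, 24454 and 12864 in WT, 20939.9, 19018 and 15407 in HET and 18919, 18036 and 10857 in KO, and *Pdyn*, the dynorphin precursor, had 1642, 1390.4 and 1130.4 in WT, 2368, 1340.2 and 1178 in HET and 1889, 2179 and 959.7 in KO. Both were at their lowest in KO replicate 3, and the genotypes overlapped. Of the 9 opioid genes, 5 were above and 4 below 0 in KO against WT, between *Pnoc* (log2FC 0.31) and *Penk* (−0.26), and the median was 0.01 against 0.0047 over all genes tested. In HET against WT they ran from *Pcsk1* (−0.22) to *Pdyn* (0.18), with a median of −0.01, and in KO against HET from *Penk* (−0.24) to *Pnoc* (0.40), with a median of −0.01. Per kb, the nociceptin receptor *Oprl1*, at 299.9 normalized counts, lay above *Oprd1*, *Oprk1* and *Oprm1*.

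In the cholinergic list, 8 of 9 genes were tested and the median log2FC was 0.08 in HET against WT, −0.04 in KO against WT and −0.15 in KO against HET. *Chat*, which makes acetylcholine in striatal interneurons, was the lowest gene in KO against WT (−0.41) and in KO against HET (−0.54). Its normalized counts were 342, 429 and 203 in WT, 405, 272 and 353 in HET and 328, 239 and 161 in KO. KO overlapped both other genotypes, and KO replicate 3 and WT replicate 3 were the lowest libraries. Per kb, the other muscarinic receptors stood below *Chrm1* and *Chrm4*, at 252 normalized counts for *Chrm3*, 65.3 for *Chrm2* and 5.27 for *Chrm5*, which was not tested. In the endocannabinoid list, 9 of 11 genes were tested, with median log2FC of 0.09, 0.05 and −0.04 in the same order. *Faah*, which degrades anandamide, was the highest gene in KO against WT (0.16) and *Dagla*, which makes 2-arachidonoylglycerol, the lowest (−0.07). *Cnr2*, at 4.46 normalized counts per kb, was far below *Cnr1*.

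In the serotonin list, 14 of the 16 genes in the table were tested, and the median log2FC was −0.02, −0.03 and 0.02 in the same order. *Htr1d*, an inhibitory receptor related to *Htr1b*, was the lowest gene in each comparison, with log2FC of −0.43 in HET against WT and −0.67 in KO against WT. It had normalized counts of 361, 227 and 118 in WT, 216, 192 and 94.7 in HET and 152, 193 and 81.9 in KO, and replicate 3 was the lowest library of each genotype. The unadjusted limma p of *Htr1d* was 0.366 in HET against WT and 0.174 in KO against WT. *Tph2*, which makes serotonin, was the highest gene in HET against WT (0.38) and *Slc18a2*, which loads it into vesicles, in KO against WT (0.43), at mean levels of 24.9 and 14.0 normalized counts. *Slc18a2* was at 42.4 in KO replicate 2 and at 2.47 to 15.0 in the other 8 libraries, with its lowest value in KO replicate 3. Per kb, *Htr2a* at 138 and *Htr5a* at 112 normalized counts were the most abundant of the other serotonin receptors listed. Among 30 genes of receptor coupling (G proteins, effectors and regulators), the median log2FC was 0.02, 0.05 and 0.01. *Rgs9*, a striatal regulator of G protein signalling and also a medium spiny neuron marker, was the lowest in KO against WT (−0.40) and in KO against HET (−0.39), and its normalized counts were 12088, 12461 and 6178 in WT, 11721, 8755 and 9055 in HET and 10101, 8483 and 4775 in KO.

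The genes whose values over the 9 libraries were most like each receptor's were sought among the 11905 tested genes with a mean of at least 100 normalized counts. As these are the highest of many, r and then rho are given without p. *Cnr1* was most like *Gm45837* (0.98, 0.93), *Rxrg* (0.98, 0.97) and *Adora2a* (0.97, 0.92), the last a marker of indirect-pathway neurons. *Htr1b* was most like *Ivns1abp* (0.98, 0.95), *Ric8b* (0.98, 0.98) and *Lpl* (0.98, 0.93). *Chrm4* was most like *Pptc7* (0.98, 0.98), *Dgat2* (0.98, 0.97) and *Sptb* (0.97, 0.95), and *Chrm1* like *Cpped1* (0.97, 0.88), *Ttbk1* (0.96, 0.97) and *Sin3b* (0.95, 0.87). For the opioid receptors, the genes were *Dchs2* (0.95, 0.90), *Sp4* (0.93, 0.90) and *Strip2* (0.93, 0.92) for *Oprm1*, *Hspbap1* (0.96, 0.90), *Atl2* (0.95, 0.95) and *Atp8b2* (0.93, 0.93) for *Oprd1* and *Ormdl1* (0.95, 0.92), *Nsg2* (0.89, 0.82) and *Znrf3* (0.89, 0.87) for *Oprk1*. *Htr2c* was most like *Srbd1* (0.92, 0.93), *Nr4a2* (0.92, 0.92) and *Gnb4* (0.91, 0.78), and *Htr4* like *Dgki* (0.99, 1.00), *Ctcf* (0.99, 0.98) and *Gprin3* (0.98, 0.95).

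In GRCm38, *Cnr1* lies at chr4:33924593-33948831 on the plus strand and *Oprd1* at chr4:132110726-132144486 on the minus strand, while *Htr1b* lies at chr9:81628291-81633828 on the minus strand. *Chrm1* is at chr19:8663789-8683587, *Chrm4* at chr2:91927249-91928688, *Oprk1* at chr1:5588466-5606131 and *Htr2c* at chrX:146962513-147197277, each on the plus strand. *Oprm1*, at chr10:6758506-7038198 on the plus strand, has 31 annotated transcripts and overlaps *Ipcef1* and *Gm10945* on the opposite strand. *Htr1b* overlaps the antisense gene *D430036J16Rik*. On the reverse strand, 18.19% of the 31-base words of *Htr1b* transcripts occur in transcripts of other genes, and 1.09% in those of genes in the table. Whether the authors' counting used the strand of the library kit is not stated. On the same strand, at most 1.11% of the 31-base words of a receptor occur in transcripts of another gene.

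RefSeq promoter windows (GRCm38.p6, 250 bases before to 50 after a start) matched 6 of the 9 receptors by symbol, namely *Chrm4*, *Cnr1*, *Htr1b*, *Htr2c*, *Oprd1* and *Oprm1*. The windows of *Oprd1* and *Htr1b*, the pair with the highest r, and the most upstream of the windows of *Cnr1*, which followed the medium spiny neuron markers, are given 5′ to 3′ on the gene's strand. Capitals mark the GC box GGGCGG or its reverse complement CCGCCC.
Cnr1, chr4:33924014-33924313, plus strand: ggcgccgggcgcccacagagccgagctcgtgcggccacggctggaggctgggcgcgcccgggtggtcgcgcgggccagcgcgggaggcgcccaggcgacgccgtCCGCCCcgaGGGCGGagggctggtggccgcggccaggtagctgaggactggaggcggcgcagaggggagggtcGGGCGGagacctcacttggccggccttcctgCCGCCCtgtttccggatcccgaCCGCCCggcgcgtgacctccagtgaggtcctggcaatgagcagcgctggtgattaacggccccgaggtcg
Oprd1, chr4:132144437-132144736, minus strand: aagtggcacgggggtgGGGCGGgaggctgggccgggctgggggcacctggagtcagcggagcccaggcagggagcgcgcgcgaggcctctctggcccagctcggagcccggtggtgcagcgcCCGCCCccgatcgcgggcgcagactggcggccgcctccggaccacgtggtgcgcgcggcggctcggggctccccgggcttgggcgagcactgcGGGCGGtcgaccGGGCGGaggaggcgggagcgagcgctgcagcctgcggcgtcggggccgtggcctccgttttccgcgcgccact
Htr1b, chr9:81633783-81634082, minus strand: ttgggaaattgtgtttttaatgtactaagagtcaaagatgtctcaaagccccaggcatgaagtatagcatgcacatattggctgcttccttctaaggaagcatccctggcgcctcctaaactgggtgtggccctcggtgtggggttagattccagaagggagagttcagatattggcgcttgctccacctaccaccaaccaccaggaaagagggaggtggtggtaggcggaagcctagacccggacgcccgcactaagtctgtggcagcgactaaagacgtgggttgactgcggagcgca
The *Cnr1* window holds 5 GC boxes, the *Oprd1* window 4 and the *Htr1b* window 0, and 35.7% of all 32851 windows hold at least 1. The other 2 windows of *Cnr1*, at chr4:33924394-33924693 and chr4:33926130-33926429, hold 0 and 0 GC boxes, with 33 and 5 CpG. The printed windows of *Cnr1* and *Oprd1* are rich in CpG, with 40 and 43 against a median of 7 over all windows, whereas that of *Htr1b* has 11. The letters TGACG or CGTCA (20.8% of all windows) and TATAAA or TTTATA (13.6%) are in none of these 3 windows. The start given by RefSeq for *Chrm4*, in chr2:91921939-91922238, lies upstream of the annotated coding exon.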

How the data were processed

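The striatum of 9 mice was measured by RNA-seq (3 WT, 3 HET and 3 KO), and genotypes and replicate numbers were taken from the labels. The authors ran Salmon 0.9.1 against GRCm38 with GC bias correction, took gene-level estimates through tximport, and scaled these by size factors from DESeq2 1.19.11 under R 3.6.0. The deposited signal is this normalized count. Whole reads could not be recovered from it, since at most 37.7% of values under 30 in a library lay within 0.05 of a multiple of a common step, so that no count model was used and the depth is unknown. The authors' annotation release is not given in the sources used here.

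The filter kept the 14239 of 15464 genes that reached 10 in 3 or more libraries. Their log2(normalized count + 1) entered a trended limma fit (limma 3.58.1, R 4.3.3) of genotype over the 9 libraries. P-values were two-sided and adjusted by the Benjamini-Hochberg method over all genes tested, with a threshold of 0.05. All 9 receptors passed the filter on low values. Exact permutation tests used scipy 1.17.1. Symbols, positions and exon lengths came from GENCODE M21 on GRCm38, with the union of annotated exons as the length, and promoters from RefSeq. Figures were drawn with matplotlib 3.10.9.

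The receptors, markers and gene lists were chosen with earlier results of these data known. Named genes are the receptors, the highest and lowest gene of each list in a comparison, ligand precursors and related receptors of the lists, and the 3 genes most like each receptor. In the lists of transmitter systems, *Penk*, *Pdyn*, *Chat*, *Slc18a3*, *Slc5a7*, *Gng7*, *Adcy5* and *Rgs9* are also markers. A gene chosen for the list of all medium spiny neuron markers is not reported here, and the list was used without it. The correlations with markers were added after the data had been seen. Deviations from the genotype means correlated between HET and KO at 0.515, 0.281 and 0.506 for replicates 1, 2 and 3. They correlated between WT and HET at 0.319, −0.0142 and 0.0054 and between WT and KO at 0.243, −0.221 and 0.0244. Replicate 1 was thus also shared in part with WT. Libraries of unlike number were not compared, so that a pairing of HET with KO alone is not shown. What the numbers stand for is not stated. Alternatives were other filters, pseudocounts, normalizations, variance priors and lengths, blocking on replicate number, fitting 2 genotypes at a time and dropping or averaging libraries.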

Additional observations from a re-analysis of the deposited data

How the results depend on the processing

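Under each of the alternatives, 20 for each comparison with WT and 21 for KO against HET, limma called 0 genes and 0 receptors in each comparison, the replicate block included. Receptors with an unadjusted p under 0.05 went from 0 to 2 (*Cnr1* and *Oprk1*) in KO against WT and from 0 to 1 in HET against WT (*Oprk1*) and in KO against HET (*Cnr1*) without WT replicate 3, where 292, 268 and 181 of all genes had such a p, against 117, 158 and 186 in the main fits. They were also 1 in KO against HET when only these genotypes were fitted, with or without the replicate block (*Cnr1*, the block within these genotypes being chosen after seeing the data; 705 of all genes with it and 163 without), and 1 in HET against WT when replicate 3 of HET and of KO were dropped (*Chrm1*, with 275 of all genes). The replicate block over 9 libraries gave 365 genes in HET against WT, 310 in KO against WT and 318 in KO against HET. Of 549 receptor fits under alternatives, 499 kept their direction and 50 reversed. The 499 include fits that could not reverse, because the alternative leaves the difference of group means as it was. Such alternatives were the other filters and variance priors, the block on replicate number and the restriction to 2 genotypes. Dropping a library of the genotype outside the comparison was another. In HET against WT, *Cnr1* stayed at 0.037 under all of these, so the 499 do not measure stability. *Chrm1* kept its direction in each alternative in HET against WT, *Cnr1* and *Chrm1* in KO against WT and *Cnr1* in KO against HET, though *Chrm1* in KO against WT fell to about 0 without KO replicate 1. Dropping replicate 3 of HET and of KO together, the libraries apart from the rest on principal component 1, the log2FC reversed to −0.035 for *Cnr1* and −0.115 for *Chrm4* in HET against WT, to 0.036 for *Htr1b* and 0.401 for *Htr4* in KO against WT, and to 0.038 for *Chrm4* and 0.006 for *Htr1b* in KO against HET. Leaving out each library in turn, the log2FC ranged as follows in HET against WT: *Cnr1* −0.205 to 0.233, *Chrm1* −0.189 to −0.032, *Chrm4* −0.127 to 0.343, *Oprm1* −0.368 to 0.375, *Oprd1* −0.11 to 0.187, *Oprk1* −0.465 to 0.124, *Htr1b* −0.29 to 0.272, *Htr2c* −0.353 to 0.1, *Htr4* −0.153 to 0.697. In KO against WT the ranges were *Cnr1* −0.533 to −0.094, *Chrm1* −0.132 to −0.0007, *Chrm4* −0.248 to 0.123, *Oprm1* −0.1 to 0.505, *Oprd1* −0.237 to 0.058, *Oprk1* −0.561 to 0.028, *Htr1b* −0.471 to 0.092, *Htr2c* −0.175 to 0.373, *Htr4* −0.482 to 0.401. In KO against HET they were *Cnr1* −0.431 to −0.256, *Chrm1* −0.039 to 0.14, *Chrm4* −0.372 to 0.086, *Oprm1* −0.128 to 0.525, *Oprd1* −0.267 to 0.021, *Oprk1* −0.181 to 0.011, *Htr1b* −0.394 to −0.011, *Htr2c* −0.043 to 0.434, *Htr4* −0.741 to 0.119. Levels in normalized counts per kb with the mean length of coding transcripts were 1525.1 for *Chrm1*, 35.96 for *Oprm1*, 316.4 for *Oprk1*, 342.4 for *Htr1b*, 468.3 for *Htr2c* and 23.79 for *Htr4*, and with the longest transcript 24.0 for *Oprm1*, 192.5 for *Oprk1* and 361.8 for *Htr2c*, since the divisor is shorter. With WT replicate 3 and KO replicate 3 both left out, an alternative chosen after seeing the data, r reversed to −0.004 for *Htr2c* with the medium spiny neuron markers, and to −0.02 for *Chrm1* and 0.12 for *Htr2c* with the cortical markers. With HET and KO of the same number averaged, likewise chosen after seeing the data, r reversed to −0.12 for *Chrm1* with the cortical markers. Leaving out each library in turn, also chosen after seeing the data, r ranged with the medium spiny neuron markers over −0.07 to 0.56 for *Chrm1* and −0.09 to 0.44 for *Htr2c*, and with the cortical markers over −0.21 to 0.29 for *Chrm1* and −0.55 to 0.17 for *Htr2c*. Apart from the lengths, the cause was not tested.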
